A study of Mus musculus with 80 samples.

Results

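The 45 genes described here encode receptors for peptide hormones and neuropeptides, together with the 3 receptor activity-modifying proteins (RAMPs) that pair with receptors of the calcitonin family. They were chosen by gene symbol, and all 45 were found among the 23337 genes of the deposited table. A member was called well expressed where its mean normalised count reached at least 50 in at least 1 group of libraries, which 38 of the 45 did. Just inside that limit were Galr1, Trhr and Cckar, with highest group means of 57.7, 60.4 and 61.4, and just outside it were Crhr2 with 48.4 and Glp1r with 44.6.

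AgRP neurons of the arcuate nucleus release agouti-related peptide, neuropeptide Y and GABA, and they drive feeding when energy is short. Most peptide signals reach them through G protein-coupled receptors on the cell surface. Receptors coupled to the stimulatory G protein, such as that for pituitary adenylate cyclase-activating polypeptide (PACAP), raise cyclic AMP. Receptors coupled to inhibitory G proteins, such as those for neuropeptide Y and the opioids, lower cyclic AMP and damp firing. The ghrelin receptor signals mainly through phospholipase C and calcium.

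The study held 80 mouse libraries in 20 groups. In 33 libraries, GFP-positive cells had been sorted by FACS from arcuate slices of NPY::hrGFP mice, a line in which the Npy promoter drives the reporter. These mice had been refed for 1 h after a 24 h fast (4 libraries at ZT14 and 5 at ZT2, where ZT counts hours of Zeitgeber time), fasted for 24 h (8 at ZT14 and 7 at ZT2) or fed ad libitum (3 at ZT14 and 6 at ZT2). In 17 libraries, ribosome-bound RNA had been immunoprecipitated from AGRP-Cre;RiboTag mice that were fasted (5 at ZT14 and 5 at ZT2) or fed ad libitum (4 at ZT14 and 3 at ZT2). In 25 libraries, AGRP-Cre;BMAL1fx mice (KO, the floxed gene for the clock factor BMAL1 recombined where Agrp drives Cre) and WT;BMAL1fx mice (Control, the same floxed alleles without Cre) received leptin or PBS at ZT14 or ZT2, with 3 libraries a group except 4 for Control with PBS at ZT2. The last 5 were KO (3) and Control (2) libraries taken at ZT5 with no treatment labelled. Ages were not in the labels, and which marker was used to collect the cells of the last 2 sets was not given in the sources used here. Replicates were numbered but not said to be separate mice, so the p-values measure the spread between libraries, which may be technical.

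Reads recovered per library were 8.16 to 27.4 M in sorted cells, 11.4 to 23.1 M in RiboTag, 5.93 to 34 M in the leptin series and 10.8 to 17.3 M at ZT5, leaving out sorted ad libitum ZT2 replicate 4, whose values gave no whole reads. In sorted cells the summed normalised counts of 10 AgRP neuron markers had a median of 549948, against 353 for 9 astrocyte markers. RiboTag libraries held far more astrocyte signal, with sums of 10399 to 161411. All 25 fasted libraries of both kinds had 42.5 to 1565 normalised counts of Cebpb, a stress-responsive transcription factor gene, against 433 to 630 in the 5 ZT5 libraries and 0 to 17.1 in the other 50. Alyref, another gene checked in each library, was at 545 to 2756 in fasted, 1273 to 2173 in ZT5 and 12.3 to 81.8 in the other libraries. The ribosomal RNA precursor Rn45s was at 1725 to 148448 in fasted, 1577 to 4007 in ZT5 and 50805 to 963336 in the other libraries. Only RiboTag fasted ZT2 replicate 3 (148448) overlapped with the others, and the next highest fasted value was 35342. Refed and ad libitum libraries were all among the others. These library differences therefore cannot be told apart from fasting. Their part in the results below that set fasted against ad libitum or refed libraries was not tested. Arntl, the gene for BMAL1, had a median of 260.5 (range 108 to 526) in 12 KO libraries and 422 (223 to 1211) in 13 Control libraries of the leptin series. Averaged over time and injection, its log2 difference KO minus Control was -0.84 ± 0.207 (SE), with an adjusted p of 0.143 by limma. Hsd11b2, a neighbour of Agrp that was at 2092 to 3749 in the KO libraries of that series and at 0 to 19.7 in its Control libraries, went against the label in 2 ZT5 libraries, the library labelled Control replicate 1 (4628) and the library labelled KO replicate 3 (11.2). Arntl at ZT5 was at 540, 470 and 491 in the libraries labelled KO and at 750 and 390 in those labelled Control, with 750 in Control replicate 1, and the groups overlapped. Called libraries that stood apart below are these 2, the sorted ad libitum ZT2 library without whole reads, the 4 sorted fasted libraries with the highest astrocyte marker sums (ZT2 replicates 3 and 6, ZT14 replicates 3 and 4), the sorted library with the fewest genes above 0 (refed ZT2 replicate 4), RiboTag fasted ZT2 replicates 3 and 5 with the highest summed values, the RiboTag libraries with the lowest Agrp (fasted ZT14 replicate 4 and ad libitum ZT2 replicate 1), and the leptin series library with the lowest Agrp (KO PBS ZT14 replicate 1).

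In ad libitum sorted cells at ZT2, 2 receptors stood above all others per length of exon. Npy2r, the presynaptic and somatic receptor for neuropeptide Y and peptide YY, had a mean level of 2010 normalised counts per kilobase (lowest 1780, highest 2220, n = 6). Calcr, the receptor for calcitonin and, with RAMPs, for amylin, had a mean level of 1060 per kilobase (979 to 1190). Neither range overlapped with that of any other member. Mc3r, a melanocortin receptor whose antagonist is AgRP itself, had a level of 433 per kilobase (329 to 647), followed by the nociceptin receptor gene Oprl1 with 402 (300 to 499) and the PACAP receptor gene Adcyap1r1 with 374 (272 to 443). The ranges of these 3 overlapped. Below them, and also overlapping among themselves, came Npy5r with a level of 120 per kilobase (90.4 to 169), the corticotropin-releasing hormone receptor gene Crhr1 with 107 (65.5 to 163) and the ghrelin receptor gene Ghsr with 76.2 (63.2 to 102).

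The number of well expressed members differed between the 4 experiments, which also differ in mouse line and treatment. In at least 1 group of sorted cells 23 members reached a mean of 50, in RiboTag 33, in the leptin series 21 and at ZT5 17. In all 20 groups 12 members did. In RiboTag groups alone 13 members did, among them Cckbr, Tacr1, Tacr3, Vipr2 and Oxtr. Some of these means rested on a few libraries. By the group median, Cckbr, Tacr1 and Vipr2 reached 50 in 2 groups, Oxtr in 1 and Tacr3 in 0. Ramp3 and Trhr, also in RiboTag alone, reached it in 0 as well. In 7 members no group reached a mean of 50: besides Crhr2 and Glp1r these were Grpr, Mc4r, Npbwr1, Oprd1 and Gipr, with highest group means of 26.1, 22.5, 19.9, 14.5 and 10.1. A bulk library cannot tell fewer cells of a type from less RNA per cell, and cells of another type add their own receptors.

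**Figure D1:**
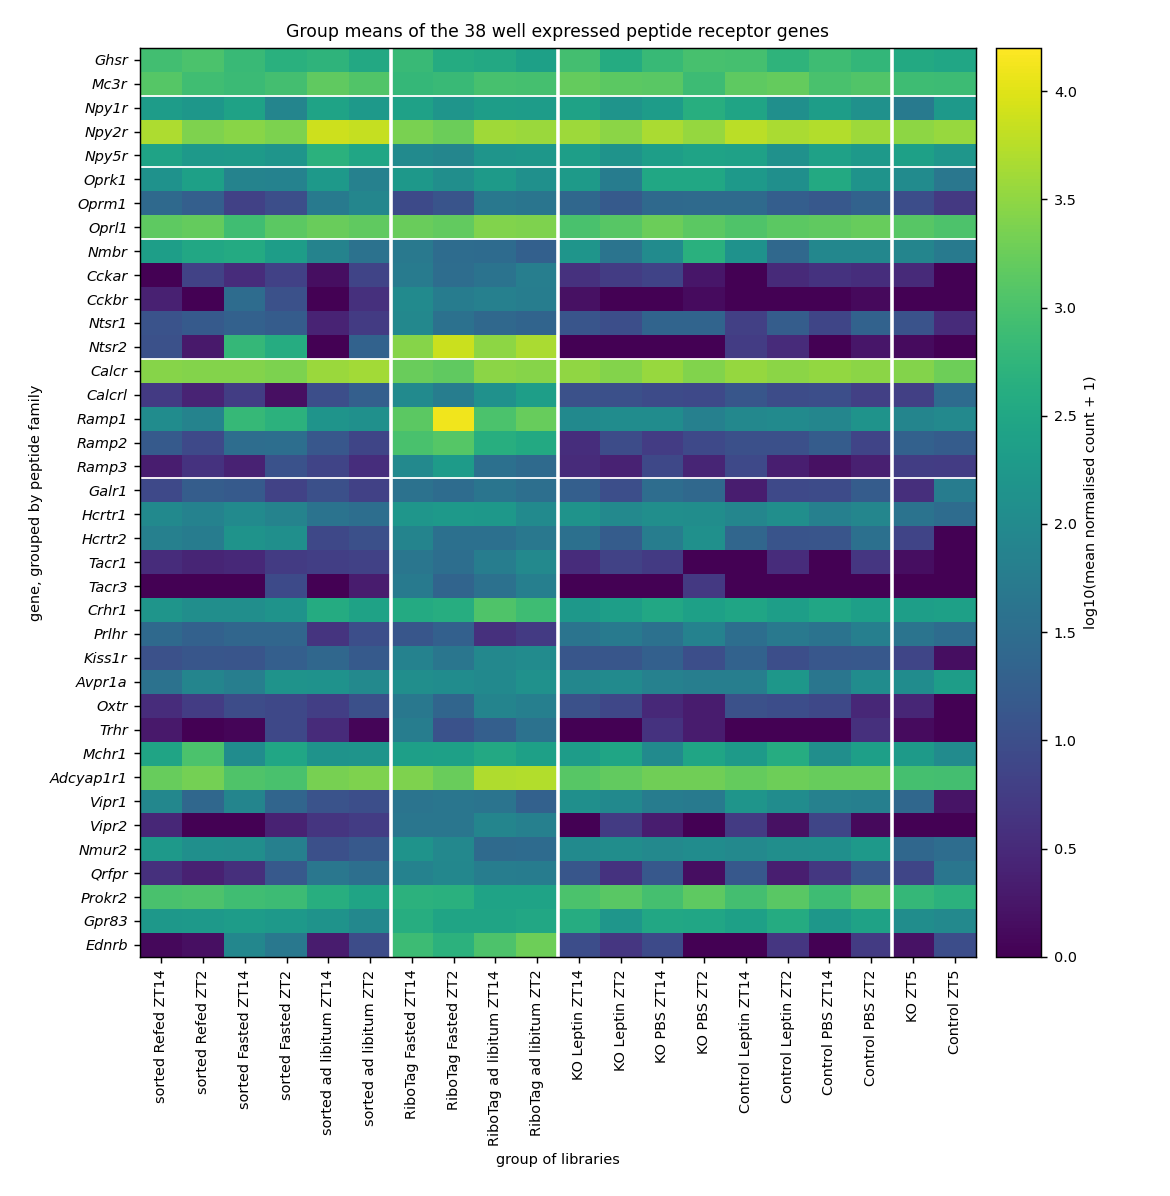
Group means of the 38 well expressed receptor genes, as log10 of the mean normalised count + 1 (colour), for the 20 groups of libraries (columns) with genes grouped by peptide family (rows, white lines). Npy2r, Calcr, Oprl1, Mc3r and Adcyap1r1 are bright in all 20 groups, while Cckbr, Tacr3, Vipr2 and Ednrb are brightest in the 4 RiboTag groups.

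The members Ntsr2, Ednrb and Ramp1 were higher in the sorted libraries with the highest astrocyte marker sums than in the other sorted libraries. Ntsr2, a neurotensin receptor, had 767 to 2664 normalised counts in the 4 sorted libraries whose astrocyte marker sum was over 5000 (fasted ZT2 replicates 3 and 6 and fasted ZT14 replicates 3 and 4, a division made after seeing the data), against 0 to 359 in the other 29. In the same 4 libraries Ednrb, the endothelin B receptor, was at 51.5 to 376, against 0 to 33.4 in the other 29. Ramp1, the partner that turns the calcitonin receptor-like protein into a receptor for calcitonin gene-related peptide, was at 1099 to 2682, against 0 to 193 in the other 29. The other 29 had astrocyte sums of up to 2331, and the library with that sum, refed ZT2 replicate 4, had 0 counts of Ramp1. In RiboTag these 3 genes were high in every group: the group mean of Ntsr2 was 2692 in fasted ZT14, 3076 in ad libitum ZT14, 7374 in fasted ZT2 and 4604 in ad libitum ZT2 libraries. The fasted ZT2 mean was carried by replicate 3 with 32496 counts, against 844 to 1534 in the others of that group. Over all 17 RiboTag libraries the median was 1268. Over the leptin series and ZT5, where astrocyte sums stayed at or below 961, the highest values were 13.5 normalised counts of Ntsr2, 23.2 of Ednrb and 218 of Ramp1.

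**Figure D2:**
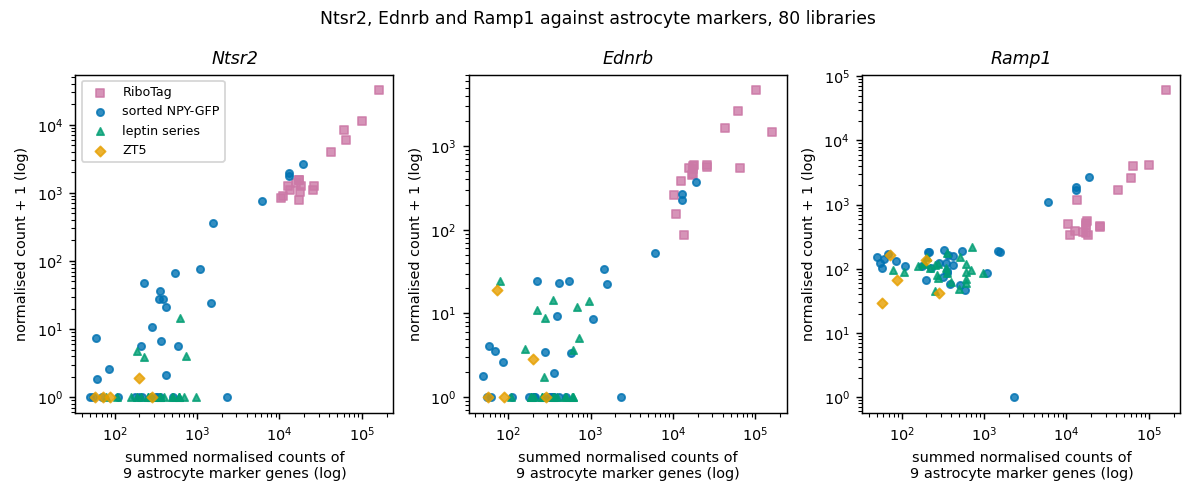
Normalised count + 1 of Ntsr2, Ednrb and Ramp1 (y, log axis) against the summed normalised counts of 9 astrocyte markers (x, log axis), 1 point per library for 80 libraries, coloured by experiment. The 4 sorted libraries with astrocyte sums of 6060 to 19030 lie above the other 29 sorted libraries in all 3 panels. For Ednrb they lie at 51.5 to 376, all below the RiboTag median of 550 (range 84.6 to 4686).

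For 37 of the 45 members RefSeq's promoter table (GRCm38.p6) held a window of 250 bases before to 50 after the transcript start. Of these, the 4 members called in the most comparisons below were taken, with ties settled by the smallest adjusted p by limma. Their windows are printed up to the start, in lower case and 5′ to 3′ on the gene's strand, with the start base in capitals. They lie at chr6:55451728-55451978 (+ strand, Adcyap1r1), chr10:6758343-6758593 (+ strand, Oprm1), chr2:132385447-132385697 (- strand, Prokr2) and chr3:82548085-82548335 (- strand, Npy2r).
Adcyap1r1: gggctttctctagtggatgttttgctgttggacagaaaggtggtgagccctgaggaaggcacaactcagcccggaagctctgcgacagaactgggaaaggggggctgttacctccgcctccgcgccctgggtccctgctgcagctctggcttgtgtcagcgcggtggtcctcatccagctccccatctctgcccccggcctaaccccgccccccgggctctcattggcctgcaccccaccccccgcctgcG
Oprm1: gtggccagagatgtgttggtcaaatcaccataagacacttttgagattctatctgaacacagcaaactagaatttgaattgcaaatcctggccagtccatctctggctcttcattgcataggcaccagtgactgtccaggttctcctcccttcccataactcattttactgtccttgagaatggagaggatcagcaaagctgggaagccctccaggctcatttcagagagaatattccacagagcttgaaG
Prokr2: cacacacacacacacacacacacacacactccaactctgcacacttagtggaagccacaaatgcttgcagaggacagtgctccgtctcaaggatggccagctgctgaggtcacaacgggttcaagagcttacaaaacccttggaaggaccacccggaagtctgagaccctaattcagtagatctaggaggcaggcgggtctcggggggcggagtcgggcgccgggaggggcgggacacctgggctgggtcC
Npy2r: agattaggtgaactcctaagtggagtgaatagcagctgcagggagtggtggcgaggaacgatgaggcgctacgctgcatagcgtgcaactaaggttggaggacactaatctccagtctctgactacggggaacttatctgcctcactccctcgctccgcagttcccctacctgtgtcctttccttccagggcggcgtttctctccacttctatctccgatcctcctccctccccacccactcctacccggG

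The 4 windows differ in base composition. That of Adcyap1r1 has 65.7% G and C and 12 CpG pairs, that of Prokr2 59.4% and 10 pairs, and that of Npy2r 57% and 12 pairs. That of Oprm1, 1 of 3 windows the table holds for this gene, has 45.8% and 0 CpG pairs. None of the 4 held a full window match, on either strand, to the E-box CACGTG bound by clock factors, the cyclic AMP response element TGACGTCA, the FOXO motif TGTTTAC or the STAT motif TTCNNNGAA. Over all 32851 promoters of the table the share holding each was 7.15%, 1.79%, 3.65% and 8.3%. Among the 44 promoters of members, 6 held the E-box (Cckbr, Mchr1, Npy5r, Ntsr2, Oprd1 and Oxtr), 0 the cyclic AMP response element, 1 the FOXO motif (Cckbr) and 2 the STAT motif (Ntsr2 and Oprl1).

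Receptor genes differed in both directions between fasted and ad libitum sorted cells. At ZT2 the share of members called, up and down together, was near that of all genes. Of the 36 members tested, 5 rose and 8 fell in fasted against ad libitum cells at ZT2 by limma at an adjusted p under 0.05, where 18.3% of all 14931 genes tested rose and 19.2% fell. At ZT14, 6 of the 36 rose and 7 fell, against 9.66% and 8.81% of all genes. The median log2 difference of the members was 0.17 at ZT2 and -0.12 at ZT14, beside -0.02 and -0.04 over all genes tested. The fall at ZT2 took in receptors for neuropeptide Y, opioids, calcitonin and PACAP, and the rise took in receptors for orexin, neurotensin and prokineticin. The difference of the fasting effect between ZT14 and ZT2 called 0 members and 0% of all genes by limma (3 members with an unadjusted p under 0.05, and the quasi-likelihood test called 0), so no member's fasting response was shown to depend on time. Other settings named below, where they ended a call, are edgeR's quasi-likelihood test on recovered reads, no filter on low values, a larger pseudocount, TMM scaling, a correction for GC content and gene length, and weights that count variable libraries less.

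After 1 h of refeeding, the share of members called against fasted cells at ZT14 was near that of all genes. At ZT2 it was lower by limma, with 3 members called. The quasi-likelihood test called 7 there, beside 3223 of all 14861 genes it tested. Refed against fasted cells at ZT2 showed 2 members up and 1 down, where 10.8% of all genes rose and 11.1% fell, and at ZT14 4 up and 0 down, where 6.36% rose and 5.3% fell. Refed against ad libitum cells at ZT2 showed 6 members up and 6 down, against 9.01% and 8.72% of all genes. At ZT14 that comparison called 0 members and 0.375% of all genes (8 members with an unadjusted p under 0.05, 0 called by quasi-likelihood). Refed cells were set against both other groups, so these comparisons share libraries with each other and with the fasting ones. Refed libraries also stood apart from fasted ones in Cebpb and Alyref. The part of that library difference in the refed against fasted results was not tested, for any member named below. Median log2 differences of the members were 0.06 (refed minus fasted) and -0.2 (refed minus ad libitum) at ZT2, and 0.03 and -0.41 at ZT14, beside -0.06, -0.14, 0.01 and -0.01 over all genes.

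**Figure D3:**
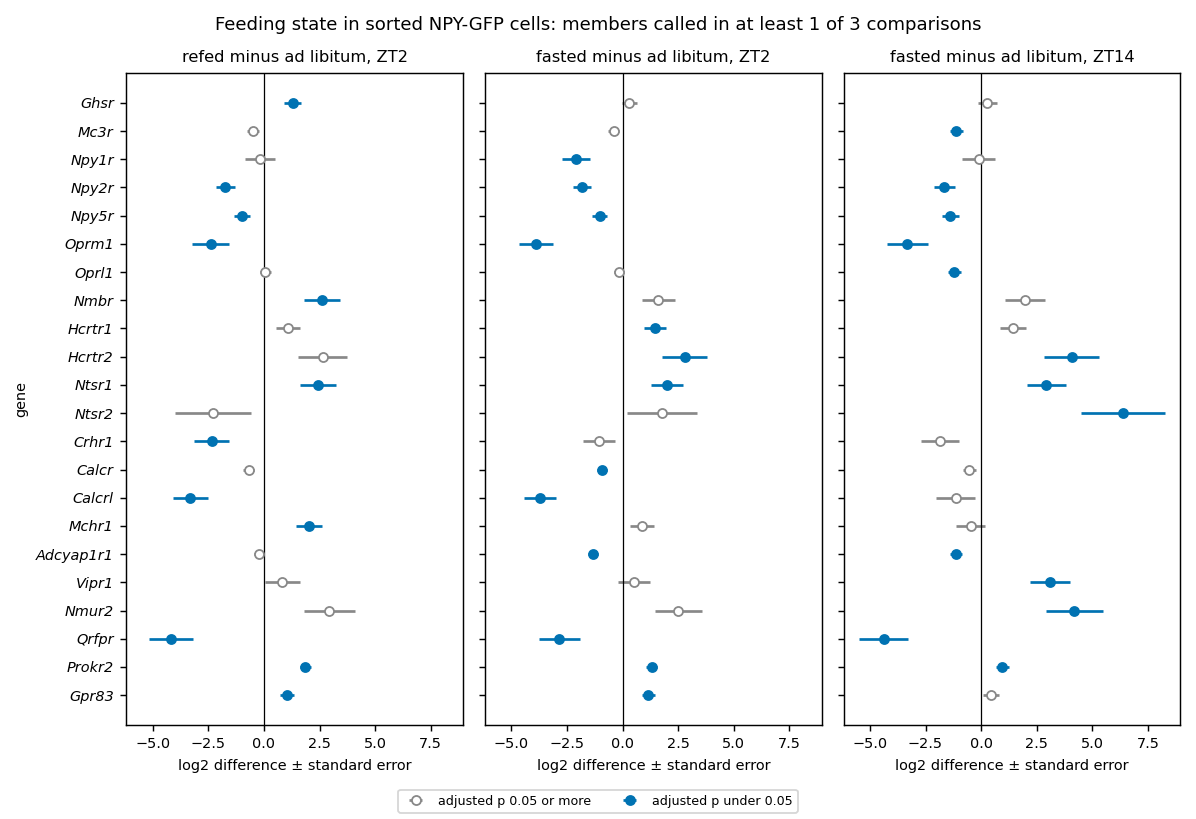
Log2 differences ± SE (x) of the 22 members called in at least 1 of 3 comparisons of sorted cells (rows), with filled points for an adjusted p under 0.05. Npy2r, Npy5r, Oprm1 and Qrfpr lie left of 0 and Prokr2 and Ntsr1 right of 0 with filled points in all 3 panels, and the fitted value of Ntsr2 at ZT14 depends on the pseudocount because its ad libitum libraries are at 0.

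Among the melanocortin and ghrelin receptors, Mc3r was lower after fasting at ZT14. Its lowest, median and highest normalised counts were 392, 694 and 1216 in 8 fasted libraries, against 1376, 1668 and 1355 in the 3 ad libitum libraries, and all 8 lay below all 3. The log2 difference was -1.12 ± 0.291 (SE), with an adjusted p of 0.0066 by limma, which became 0.0589 when replicate 2 of the ad libitum ZT14 group was left out. At ZT2 the means were 868 in fasted cells and 1136 in cells fed ad libitum (log2 difference -0.40 ± 0.239, adjusted p 0.187). Refed ZT14 libraries held 1181, 917, 1473 and 1348 counts of Mc3r, a rise of 0.85 ± 0.263 over fasted cells (adjusted p 0.0297) with 2 of 4 libraries above all fasted ones. That call was lost without refed ZT14 replicate 1, 3 or 4 or fasted ZT14 replicate 3, 4 or 7 (highest adjusted p 0.118), and was 0.0944 without all libraries that stood apart.

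Ghsr, through which ghrelin activates AgRP neurons, had 1233, 610, 485, 2423 and 425 normalised counts in refed ZT2 libraries, against a lowest, median and highest of 280, 327 and 454 in ad libitum ones. In 4 of the 5 refed libraries it was above all 6 ad libitum ones. The rise was 1.30 ± 0.382 on the log2 scale (adjusted p 0.0165 by limma). It rested on the 2 highest libraries: the adjusted p was 0.0521 without refed ZT2 replicate 1, 0.11 without replicate 4 and 0.112 without the libraries that stood apart. In fasted cells Ghsr averaged 458 at ZT2 and 712 at ZT14, and it was called in neither fasting comparison. Mc4r did not pass the filter on low values in sorted cells.

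All 3 neuropeptide Y receptor genes tested fell with fasting at ZT2. Npy2r, at mm10 chromosome 3, bases 82538383 to 82548084 on the - strand, had a lowest, median and highest of 799, 1838 and 4269 normalised counts in 7 fasted libraries, against 6006, 6902 and 7493 in 6 ad libitum libraries. No fasted library reached any ad libitum one. The log2 difference was -1.82 ± 0.395 (adjusted p 0.00042 by limma). At ZT14 the fasted values were 1187, 1929 and 5821, against 6678, 8500 and 7208 in the 3 ad libitum libraries, again with no overlap (-1.66 ± 0.48, adjusted p 0.0139). That call was lost without ad libitum ZT14 replicate 2 (0.0815) or 3 (0.0502).

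The level of Npy2r stayed low at ZT2 after 1 h of food. Refed ZT2 libraries held 951, 2561, 5186, 1335 and 2074 counts, all below every ad libitum library (log2 difference -1.74 ± 0.43, adjusted p 0.00504), and their mean of 2422 stood beside 2396 in fasted cells (0.09 ± 0.416, adjusted p 0.908). At ZT14 refed libraries held 5541, 4630, 5216 and 3566 counts, with a mean of 4738 against 2807 in fasted cells (0.99 ± 0.435, adjusted p 0.148).

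Npy5r, which lies beside Npy1r on chromosome 8, is a receptor through which neuropeptide Y promotes feeding. Its lowest, median and highest counts were 60.1, 157 and 215 in fasted ZT2 cells, against 231, 272 and 431 in ad libitum ZT2 cells (log2 difference -1.03 ± 0.323, adjusted p 0.0117). At ZT14 they were 101, 183 and 308 in fasted cells, against 622, 475 and 371 in the 3 ad libitum libraries (-1.38 ± 0.393, adjusted p 0.0123). Neither pair of groups overlapped. The ZT14 call was lost without ad libitum replicate 1 (0.0854) or 2 (0.0584). Refed ZT2 cells averaged 179, against 308 in ad libitum cells (-0.99 ± 0.351, adjusted p 0.0456), a call that 15 of 20 alternatives lost, with the highest adjusted p of 0.26 without refed ZT2 replicate 4. Those that changed a setting were no filter (0.0574), TMM scaling (0.057), the quasi-likelihood test (0.169), the GC and length correction (0.0549) and library weights (0.0918), and it was 0.259 without the libraries that stood apart.

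Npy1r, a receptor through which neuropeptide Y inhibits neurons, had a lowest, median and highest of 1.1, 45.9 and 172 counts in fasted ZT2 cells, against 124, 146 and 345 in ad libitum ZT2 cells, and 4 of 7 fasted libraries lay below all ad libitum ones (-2.08 ± 0.621, adjusted p 0.00808). The quasi-likelihood test gave this difference an adjusted p of 0.0771. In refed ZT2 libraries it was at 225, 118, 141, 285 and 68.6, which was 1.91 ± 0.654 higher than fasted on the log2 scale (adjusted p 0.033), with 2 of 5 above all fasted ones. That call was lost without fasted ZT2 replicate 1 or 2 or refed ZT2 replicate 1, 3 or 4 (highest adjusted p 0.1), by the quasi-likelihood test (0.149) and with no filter (0.0524). At ZT14 Npy1r averaged 266 in fasted cells and 277 in cells fed ad libitum (-0.11 ± 0.756, adjusted p 0.939).

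Of the opioid family, the mu receptor gene Oprm1 fell to a few counts in fasted cells. Its lowest, median and highest counts at ZT2 were 0, 3.5 and 28.5 in fasted libraries, against 62.6, 69.5 and 142 in ad libitum libraries. At ZT14 they were 0, 7.81 and 10.9 in fasted libraries, against 12.8, 81.5 and 60.9 in the 3 ad libitum libraries. The groups did not overlap at either time. The log2 differences were -3.88 ± 0.756 at ZT2 (adjusted p 0.000118) and -3.31 ± 0.92 at ZT14 (adjusted p 0.0105), and the ZT14 call was lost without ad libitum ZT14 replicate 2 (0.101) or 3 (0.0682). The fasted values rest on 53 recovered reads in 7 libraries at ZT2 and 54 in 8 libraries at ZT14.

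Mean counts of Oprm1 in refed cells lay between those of the other groups. Refed ZT2 libraries had 10.5, 24.8, 6.32, 38.5 and 8.44 counts, all below every ad libitum library (-2.39 ± 0.823, adjusted p 0.0402). Refed ZT14 libraries had 18.7, 35, 22.4 and 29.1, all above every fasted ZT14 library (2.68 ± 0.833, adjusted p 0.0297). Leaving out 1 library ended the first call in 8 of 11 cases (ad libitum ZT2 replicates 1, 3, 4, 5 and 6 and refed ZT2 replicates 1, 3 and 5, highest adjusted p 0.0889), and so did no filter (0.0631), the quasi-likelihood test (0.138) and the GC and length correction (0.0524). It ended the ZT14 call in 7 of 12 cases (fasted ZT14 replicates 2, 3 and 4 and refed ZT14 replicates 1 to 4, highest adjusted p 0.1), as did no filter (0.052), the quasi-likelihood test (0.0997), the GC and length correction (0.0584) and leaving out the libraries that stood apart (0.0945). About 1.19% of the exon length of Oprm1 overlaps Ipcef1 on the opposite strand, and the strand setting of the counting was not given in the sources used here.

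Oprl1, the receptor for nociceptin, was lower after fasting at ZT14. It had a lowest, median and highest of 405, 734 and 1468 counts in fasted cells, against 1368, 1891 and 1979 in the 3 ad libitum libraries, and 7 of 8 fasted libraries lay below all of these (-1.20 ± 0.28, adjusted p 0.0027). Refed ZT14 libraries held 1216, 809, 1604 and 2035 counts (0.83 ± 0.254 over fasted, adjusted p 0.0265), with 2 of 4 above all fasted ones. The refed call was lost without fasted ZT14 replicate 3 or 4 or refed ZT14 replicate 3 or 4 (highest adjusted p 0.154), and without the libraries that stood apart (0.128). At ZT2 Oprl1 averaged 1363 in fasted cells and 1509 in cells fed ad libitum (-0.15 ± 0.231, adjusted p 0.634). Oprk1, the kappa receptor bound by dynorphins, was called in no feeding comparison, with a median of 60.1 in fasted ZT2 and 75.2 in ad libitum ZT2 cells.

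**Figure D4:**
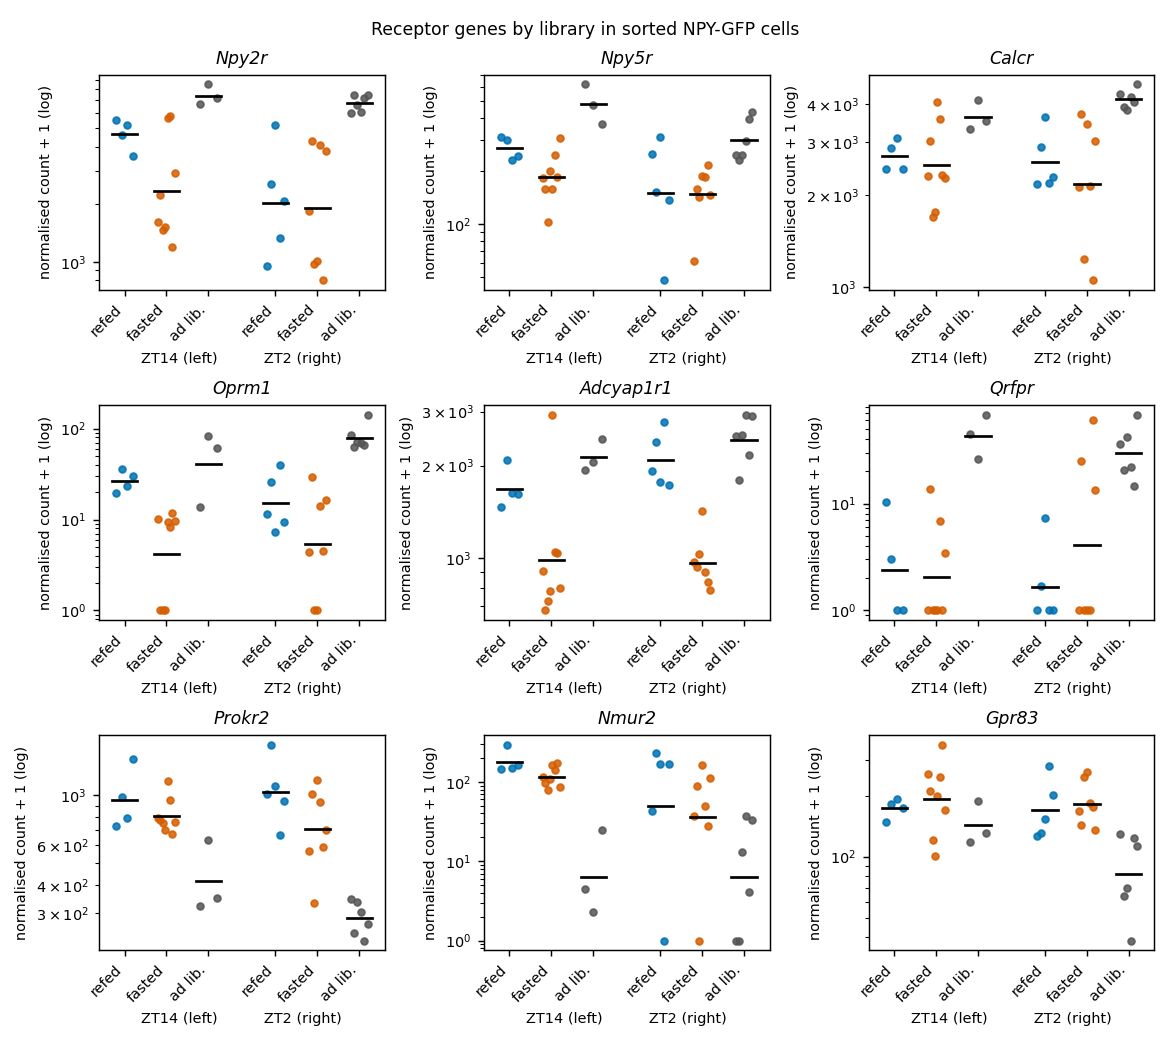
Normalised count + 1 (y, log axis) of 9 receptor genes in each sorted library, by feeding state at ZT14 (left) and ZT2 (right), with bars at the mean of the log values. Fasted and ad libitum points are separate for Npy2r, Npy5r and Oprm1 at both times, and refed points of Prokr2 lie above all ad libitum points.

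Receptor genes of the calcitonin family fell at ZT2. Calcr had a lowest, median and highest of 1052, 2156 and 3703 counts in fasted ZT2 cells, against 3829, 4151 and 4640 in ad libitum ZT2 cells, with no overlap (-0.93 ± 0.23, adjusted p 0.00163). At ZT14 the fasted values were 1702, 2322 and 4066, against 3317, 4123 and 3511 in the 3 ad libitum libraries, and the difference was not called. Calcrl, the calcitonin receptor-like partner of the RAMPs, was at 0 in 5 of 7 fasted ZT2 libraries with a highest value of 2.36, against 10.1, 16.6 and 29.7 in ad libitum ones (adjusted p 0.000103). Its 3 recovered reads in the 7 fasted libraries stood against 91 in 5 ad libitum libraries with whole reads, a ratio of mean values, ad libitum over fasted, of 38.4 (13.1 to 186 from the exact 95% Poisson interval of the 3 reads). In refed ZT2 libraries it was at 0, 0, 7.11, 0 and 1.06, also below all ad libitum ones (-3.31 ± 0.781, adjusted p 0.00348, and 0.0894 by the quasi-likelihood test). The summed endothelial markers had a lowest, median and highest of 236, 396 and 538 in ad libitum ZT2 cells. They were at 51.2, 194 and 612 in fasted ZT2 cells, with overlap, and at 83.9, 115 and 137 in refed ones, without overlap. The part of endothelial RNA in the Calcrl results was not tested.

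Ramp1 was lower in refed than in fasted cells at ZT2. Refed libraries held 45.6, 72.5, 64.8, 0 and 193 counts, against a lowest, median and highest of 55.6, 184 and 1672 in fasted ones, and the groups overlapped (-3.00 ± 0.934, adjusted p 0.0185). The call was lost without refed ZT2 replicate 4 (0.145) or fasted ZT2 replicate 6 (0.0503), and without all libraries that stood apart the log2 difference was -0.80 with an adjusted p of 0.184. The 2 highest fasted libraries, replicates 3 and 6 with 1099 and 1672 counts, were the 2 with astrocyte marker sums of 6060 and 12980. Of the 9 astrocyte markers, 0 rose and 3 fell in refed against fasted ZT2 cells. The part of astrocyte RNA in the Ramp1 result was not tested.

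Among gut and bombesin peptide receptors, the neurotensin receptor gene Ntsr1 rose but stayed low. It had a lowest, median and highest of 0, 15.7 and 31 counts in fasted ZT2 cells, against 0, 1.47 and 19.8 in ad libitum ZT2 cells (1.99 ± 0.731, adjusted p 0.0303). At ZT14 it had 4.19, 19.8 and 36.6 in fasted cells, against 0.855, 3.95 and 0 in the 3 ad libitum libraries, with no overlap (2.93 ± 0.89, adjusted p 0.019). In refed ZT2 libraries it was at 12.9, 23.5, 13.4, 11 and 12.7, against the same ad libitum ZT2 libraries (2.44 ± 0.796, adjusted p 0.0303). The fasted ZT2 call was lost without ad libitum ZT2 replicate 1, 2 or 3 or fasted ZT2 replicate 1, 2, 3, 4 or 6 (highest adjusted p 0.0853) and with the GC and length correction (0.066), and the refed call without ad libitum ZT2 replicate 1, 2 or 3 or refed ZT2 replicate 1, 2 or 4 (highest 0.0777) and with a pseudocount of 10 (0.0785). The ZT14 call was lost without ad libitum ZT14 replicate 1 (0.0707) or 3 (0.135).

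Ntsr2 rose at ZT14, with a lowest, median and highest of 1.13, 50.4 and 2664 counts in fasted cells, against 0 in all 3 ad libitum libraries (adjusted p 0.017). The fasted mean of 616 was at least 209-fold higher than the ad libitum floor of 3 reads per library, a bound carried by 2 libraries: it was 110-fold without fasted ZT14 replicate 3, 153-fold without replicate 4 and 28.1-fold without both. These 2 highest fasted libraries, replicates 3 and 4 with 2664 and 1766 counts, had astrocyte marker sums of 19030 and 12907, and 4 of 9 astrocyte markers rose in this comparison. Without the libraries that stood apart the adjusted p was 0.0189, with a pseudocount of 10 it was 0.0594, and without ad libitum ZT14 replicate 1, 2 or 3 it was 0.0568, 0.0723 or 0.0623. Whether astrocyte RNA accounts for Ntsr2 was not tested.

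Nmbr, the neuromedin B receptor, rose in refed cells at ZT2. Refed libraries held 867, 144, 96.4, 418 and 95 counts, all above the ad libitum lowest, median and highest of 16.6, 42.7 and 60 (2.62 ± 0.797, adjusted p 0.0202). The adjusted p was 0.0804 without refed ZT2 replicate 1, 0.0709 without replicate 4 and 0.0919 without the libraries that stood apart. Fasted ZT2 cells averaged 219, against 37.8 in ad libitum cells (1.61 ± 0.733, adjusted p 0.0823). About 15.6% of its exon length overlaps the antisense gene B230364G03Rik, so that reads of the 2 cannot be told apart without the strand.

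Among receptors for hypothalamic and arousal peptides, the PACAP receptor gene Adcyap1r1 (mm10 chromosome 6, bases 55451978 to 55501451, + strand) was lower in fasted than in ad libitum or refed cells. PACAP excites AgRP neurons through this receptor. It had a lowest, median and highest of 784, 932 and 1419 counts in fasted ZT2 cells, against 1793, 2503 and 2923 in ad libitum ZT2 cells (-1.33 ± 0.223, adjusted p 1.5e-05). Refed ZT2 libraries held 1925, 2395, 1774, 2779 and 1724 counts, all above every fasted library (1.11 ± 0.234, adjusted p 0.000628). The refed and ad libitum ranges at ZT2 overlapped, while the fasted range lay below both. Fasted libraries stood apart from both in Cebpb and Alyref as well, and the part of that library difference here was not tested.

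At ZT14 the same gene had 674, 851 and 2935 counts in fasted cells, against 1929, 2061 and 2442 in the 3 ad libitum libraries. Here 7 of 8 fasted libraries lay below all ad libitum ones and fasted ZT14 replicate 5 lay above them (-1.12 ± 0.271, adjusted p 0.00362). Refed ZT14 libraries held 1467, 2085, 1627 and 1616 counts of Adcyap1r1 (0.78 ± 0.245 over fasted, adjusted p 0.0328), none above that fasted library. The refed ZT14 call was lost by the quasi-likelihood test (0.12), without the libraries that stood apart (0.127), without fasted ZT14 replicate 2, 3, 4 or 8, and without any 1 refed ZT14 library (highest adjusted p 0.146).

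Prokr2, the prokineticin receptor whose ligand is an output signal of the circadian clock and lowers food intake in mice, was higher in both fasted and refed cells. At ZT2 it had a lowest, median and highest of 333, 700 and 1171 counts in fasted cells, against 226, 287 and 347 in ad libitum cells, with 6 of 7 above all ad libitum ones (1.31 ± 0.238, adjusted p 4.98e-05). Refed ZT2 libraries held 1015, 1673, 1102, 664 and 944 counts, all above every ad libitum one (1.86 ± 0.259, adjusted p 7.26e-06). At ZT14 the fasted values were 673, 766 and 1158, against 322, 631 and 351 in the 3 ad libitum libraries, with no overlap (0.96 ± 0.29, adjusted p 0.0184, but 0.129 or 0.109 when ad libitum replicate 1 or 3 was left out). Refed ZT14 libraries held 732, 984, 793 and 1444 counts of Prokr2, also above all 3 ad libitum ones, but this difference was not called (1.20 ± 0.327, adjusted p 0.121). It was the smallest p among members there, followed by Vipr1 with 3.43 ± 0.996 (adjusted p 0.164).

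Qrfpr, the receptor for the RFamide peptide QRFP, fell to near 0 in most fasted and refed libraries. It was at 0 in 4 of 7 fasted ZT2 libraries, with a highest of 59.6, against 13.6, 27.9 and 66.2 in ad libitum ones (-2.84 ± 0.908, adjusted p 0.0132, but 0.423 by the quasi-likelihood test). At ZT14 it was at 0 in 5 of 8 fasted libraries, with a highest of 12.8, against 43.6, 25 and 67.1 in ad libitum ones (-4.38 ± 1.11, adjusted p 0.00509). Its refed ZT2 values were 0, 0.69, 6.32, 0 and 0, all below every ad libitum one (-4.16 ± 0.989, adjusted p 0.00373, and 0.0753 by the quasi-likelihood test). The fasted and ad libitum values of Qrfpr overlapped at ZT2 and not at ZT14.

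Nmur2, the neuromedin U receptor, rose at ZT14. It had a lowest, median and highest of 77.1, 111 and 172 counts in fasted cells, against 3.42, 1.32 and 23.9 in the 3 ad libitum libraries, with no overlap (4.19 ± 1.28, adjusted p 0.0199). Leaving out replicate 1 or 2 of the ad libitum ZT14 group gave an adjusted p of 0.0836 or 0.152. At ZT2 it had 0, 48.3 and 160 in fasted cells, against 0, 7.68 and 36.4 in ad libitum cells (2.51 ± 1.05, adjusted p 0.0593). Vipr1, a receptor for vasoactive intestinal peptide and PACAP, also rose at ZT14, with 41.9, 58.3 and 246 counts in fasted cells against 24.8, 6.58 and 1.54 in ad libitum ones (3.09 ± 0.883, adjusted p 0.0128, and 0.0624 or 0.147 without ad libitum ZT14 replicate 2 or 3).

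Both orexin receptor genes rose with fasting at ZT2, and Hcrtr2 also at ZT14. Hcrtr2 had a lowest, median and highest of 0, 41.5 and 484 counts in fasted ZT2 cells, against 0, 8.55 and 24.6 in ad libitum ZT2 cells (2.79 ± 1.02, adjusted p 0.0298). At ZT14 the fasted values were 6.65, 126 and 431, against 2.56, 17.1 and 1.54 in the 3 ad libitum libraries (4.07 ± 1.24, adjusted p 0.0195). Both pairs of groups overlapped. The ZT2 call was lost without ad libitum ZT2 replicate 1 or 2 or fasted ZT2 replicate 1, 4 or 6 (highest adjusted p 0.0903), without the libraries that stood apart (0.0709) and with library weights (log2 difference 1.57, adjusted p 0.144), and the ZT14 call without ad libitum ZT14 replicate 1 (0.087) or 3 (0.116). Hcrtr1 averaged 73.2 ± 24.3 in fasted ZT2 cells and 31.4 ± 26.1 in ad libitum ZT2 cells (SD, n = 7 and 6), a rise of 1.46 ± 0.483 (adjusted p 0.0159). That call was lost without ad libitum ZT2 replicate 5 (0.0648), by the quasi-likelihood test (0.0802) and with the GC and length correction (log2 difference 0.98, adjusted p 0.118). At ZT14 Hcrtr1 averaged 102 ± 28.2 in fasted cells and 38.7 ± 17.6 in ad libitum cells (SD, n = 8 and 3), with no overlap but no call (1.45 ± 0.587, adjusted p 0.0817).

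Gpr83, a receptor reported to bind a peptide cut from proSAAS, was higher in fasted and refed cells at ZT2. It had a lowest, median and highest of 134, 174 and 262 counts in fasted cells, against 37.5, 90.7 and 128 in ad libitum cells, with no overlap (1.15 ± 0.295, adjusted p 0.00234). Refed ZT2 libraries held 126, 130, 153, 278 and 201 counts, with 4 of 5 above all ad libitum ones (1.05 ± 0.321, adjusted p 0.0212, but 0.0701 without ad libitum ZT2 replicate 4, 0.0917 without refed ZT2 replicate 4, 0.134 without the libraries that stood apart and 0.0682 by the quasi-likelihood test). Mchr1, the melanin-concentrating hormone receptor, held 1007, 315, 271, 3450 and 172 counts in refed ZT2 libraries, against 72.2, 137 and 234 in ad libitum ones (2.03 ± 0.58, adjusted p 0.014, and 0.0999 without refed ZT2 replicate 4 or 0.136 without all libraries that stood apart). Crhr1 held 59.6, 157, 256, 0 and 121 counts in refed ZT2 libraries, against 161, 236 and 402 in ad libitum ones (-2.35 ± 0.774, adjusted p 0.0314). For Crhr1 the adjusted p was 0.182 without refed ZT2 replicate 4, 0.0593 without ad libitum ZT2 replicate 1, 0.0553 without replicate 6, 0.227 by the quasi-likelihood test, 0.124 with library weights and 0.104 without the libraries that stood apart.

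The RNA of genes for the peptides that these receptors bind rose more often than it fell in fasted cells. Of 29 ligand genes tested in sorted cells, 18 rose and 0 fell at ZT2 in fasted against ad libitum cells, with a median log2 difference of 2.21, and 8 rose and 1 fell at ZT14, with a median of 1.3, beside medians of -0.02 and -0.04 over all genes. Over all genes 18.3% rose and 19.2% fell at ZT2, and 9.66% and 8.81% at ZT14. Nts, the gene of neurotensin, averaged 1484 ± 997 in fasted ZT2 cells and 10.6 ± 14.3 in ad libitum ZT2 cells (SD, n = 7 and 6), a log2 difference of 7.66 ± 0.774 (adjusted p 2.92e-09 by limma). Pdyn, the gene of the dynorphins, averaged 296 in fasted ZT2 cells and 9.87 in ad libitum ones (5.13 ± 0.68, adjusted p 3.88e-07). Gal, the galanin gene, averaged 1969 in fasted ZT2 cells and 328 in ad libitum ones (2.45 ± 0.393, adjusted p 8.16e-06), while Galr1 stayed below a mean of 50 in every sorted group. The summed markers of other hypothalamic neurons moved with the ligands at ZT2, with a lowest, median and highest of 10949, 22957 and 63682 in fasted cells, against 3835, 6916 and 9634 in ad libitum cells, and no overlap. At ZT14 they were 6426, 14404 and 23595 in fasted cells, against 5655, 6281 and 14202 in ad libitum cells, with overlap. Of the 9 markers of that list tested, 7 rose at ZT2 and 3 at ZT14 and 0 fell, and 6 of the 11 on the list, Gal and Pdyn among them, are also ligands here. Of 5 markers of POMC neurons 2 rose and 1 fell at ZT2. The part of RNA from other neurons in these values was not tested.

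Of 47 accessory and signalling genes tested in sorted cells, 15 rose and 13 fell at ZT2 in fasted against ad libitum cells (median log2 difference 0.27), where 18.3% of all genes rose and 19.2% fell (median -0.02). At ZT14 10 rose and 7 fell (median 0.16), where 9.66% and 8.81% of all genes did (median -0.04). Prkaca, the catalytic subunit of the cyclic AMP-dependent kinase, averaged 3468 ± 939 in fasted ZT2 cells and 556 ± 188 in ad libitum ZT2 cells (SD, n = 7 and 6), a log2 difference of 2.66 ± 0.215 (adjusted p 2.89e-11). Gnas, the stimulatory G protein subunit, averaged 51647 in fasted ZT2 cells and 18715 in ad libitum ZT2 cells (1.51 ± 0.161, adjusted p 6.43e-09). After 1 h of refeeding at ZT2, Prkaca averaged 535 in refed cells and 3468 in fasted cells (-2.67 ± 0.227, adjusted p 7.31e-11), and 6 of the 47 rose and 14 fell (median 0.09), where 10.8% of all genes rose and 11.1% fell (median -0.06). Both genes were also higher in fasted RiboTag libraries, where Prkaca averaged 5958 in fasted ZT14 and 333 in ad libitum ZT14 libraries (4.07 ± 0.44, adjusted p 6.25e-06). Fasted libraries of both kinds also stood apart from refed and ad libitum ones in Cebpb and Alyref. That library difference cannot be told apart from fasting here, and its part in these values was not tested.

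In RiboTag libraries far fewer receptor genes were called. All 45 members were tested. In fasted against ad libitum libraries 0 rose and 1 fell at ZT2, where 4.08% of all 15444 genes rose and 3.81% fell, and 1 rose and 0 fell at ZT14, where 4.15% rose and 1.14% fell. The median log2 difference of the members was -0.26 at ZT2 and -0.27 at ZT14, beside -0.19 and -0.16 over all genes. The fasting effect did not differ by time for any member by limma (1 member with an unadjusted p under 0.05, 0 called by quasi-likelihood, and 0% of all genes).

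Adcyap1r1 was the member that fell at ZT2 in RiboTag. Fasted libraries held 2460, 765, 1234, 2608 and 1740 counts, against 5630, 4610 and 5104 in ad libitum ones, with no overlap (-1.67 ± 0.484, adjusted p 0.0417). At ZT14 fasted libraries held 2265, 4443, 638, 2446 and 2645, against 4723, 5095, 6406 and 4080 in ad libitum ones (-1.25 ± 0.444, adjusted p 0.122). The ZT2 call was lost without any 1 ad libitum library or fasted replicate 2, 3 or 5 (highest adjusted p 0.141), by the quasi-likelihood test (0.061), with no filter (0.0559), with the GC and length correction (0.0814), without the libraries that stood apart (0.269) and under TMM scaling (0.0651), which moved the median of all genes at ZT2 to -0.07, against -0.19.

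Nmur2 was the member that rose at ZT14 in RiboTag. Fasted libraries held 122, 135, 101, 107 and 243 counts, against 25.9, 24.5, 48.1 and 11.7 in ad libitum ones, with no overlap (2.40 ± 0.643, adjusted p 0.0352). At ZT2 fasted libraries held 113, 116, 14.5, 142 and 73.2, against 48.7, 9.76 and 25.6 in ad libitum ones (1.61 ± 0.7, adjusted p 0.147). The ZT14 call was lost without ad libitum replicate 1, 2 or 4 or fasted replicate 1, 2 or 5 (highest adjusted p 0.14), and with no filter (0.0542). Oprm1 followed it at ZT14, with 2.1, 12.7, 0, 12.2 and 12.3 counts in fasted libraries against 52.6, 34.8, 56.7 and 42.3 in ad libitum ones, with no overlap but no call (-2.98 ± 0.972, adjusted p 0.0892). Glp1r had the next smallest p at ZT2 (adjusted p 0.121).

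Npy2r in RiboTag held 2874, 1523, 174, 2854 and 1735 counts in fasted ZT2 libraries, against 1490, 4302 and 5489 in ad libitum ones, and the groups overlapped (-1.33 ± 0.817, adjusted p 0.302). Fasted ZT2 replicate 3, with 174, had the highest astrocyte marker sum of all libraries (161411) and 32496 counts of Ntsr2. Prokr2 averaged 459 in fasted ZT2 and 272 in ad libitum ZT2 RiboTag libraries (0.29 ± 0.683, adjusted p 0.814). Of 33 ligand genes, 5 rose and 0 fell at ZT2 (median log2 difference 0.88, beside -0.19 over all genes), among them Nts, Gal and Pomc, and 1 rose and 0 fell at ZT14 (median 0.51, beside -0.16). That gene was Prok2, the ligand of Prokr2, with means of 23.1 in fasted ZT14 and 1.99 in ad libitum ZT14 libraries (3.13 ± 0.633, adjusted p 0.00451).

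With leptin, 2 of the 33 members tested were called, and among the 4 strata calls came only in KO cells at ZT2. There 0 members rose and 2 fell in leptin against PBS libraries, where 0.287% of all 13942 genes rose and 0.136% fell. Oprk1 held 34.7, 48.1 and 86.2 counts in KO leptin ZT2 libraries, against 413, 172 and 358 in KO PBS ZT2 libraries, with no overlap (-2.46 ± 0.485, adjusted p 0.021). Nmbr held 6.94, 94.4 and 18.1 counts in KO leptin ZT2 libraries, against 160, 624 and 584 in KO PBS ZT2 libraries, with no overlap (-4.00 ± 0.848, adjusted p 0.0353). Without KO leptin replicate 1 or 2 or KO PBS replicate 2 or 4, the Oprk1 call was lost (0.133, 0.0594, 0.0567 and 0.114). Without KO leptin replicate 1 or 3 or KO PBS replicate 3 or 4, the Nmbr call was lost (0.226, 0.138, 0.159 and 0.147), as it was with no filter (0.067) and by the quasi-likelihood test (0.124). With replicate number added to the limma fit as a block, both calls were lost (adjusted p 0.0571 for Oprk1 and 0.0895 for Nmbr).

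In the other strata leptin gave 0 calls among members by limma. In Control at ZT2 0 members and 0.0215% of all genes were called, in Control at ZT14 0 and 0%, and in KO at ZT14 0 and 0.0861%, with 0, 0 and 3 members with an unadjusted p under 0.05 and 0 called by quasi-likelihood in each. Oprk1 averaged 122 in Control leptin and 141 in Control PBS libraries at ZT2 (-0.32 ± 0.454, adjusted p 1), 182 and 350 at ZT14 (-0.96 ± 0.485, adjusted p 1), and 191 in KO leptin and 316 in KO PBS libraries at ZT14 (-0.91 ± 0.485, adjusted p 0.986). Averaged over the 4 strata, 0 members rose and 1 fell, against 0.789% and 0.136% of all genes, and that member was Oprk1 (-1.16 ± 0.239, adjusted p 0.0141). With library weights this call was lost (-0.83, adjusted p 0.0534). Mc3r came next, with 0.58 ± 0.157 (adjusted p 0.0965).

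Whether leptin acted differently on a member in KO and Control cells was tested directly and called 0 members at ZT2 and 0 at ZT14 by limma, with 0% of all genes at both times (5 and 0 members with an unadjusted p under 0.05, 0 called by quasi-likelihood). For Oprk1 at ZT2 that difference was -2.15 ± 0.664 (unadjusted p 0.00362, adjusted p 1). For Nmbr it was -2.75 ± 1.16 (unadjusted p 0.0263, adjusted p 1). A call in KO cells and none in Control cells therefore does not show that the genotypes differed.

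**Figure D5:**
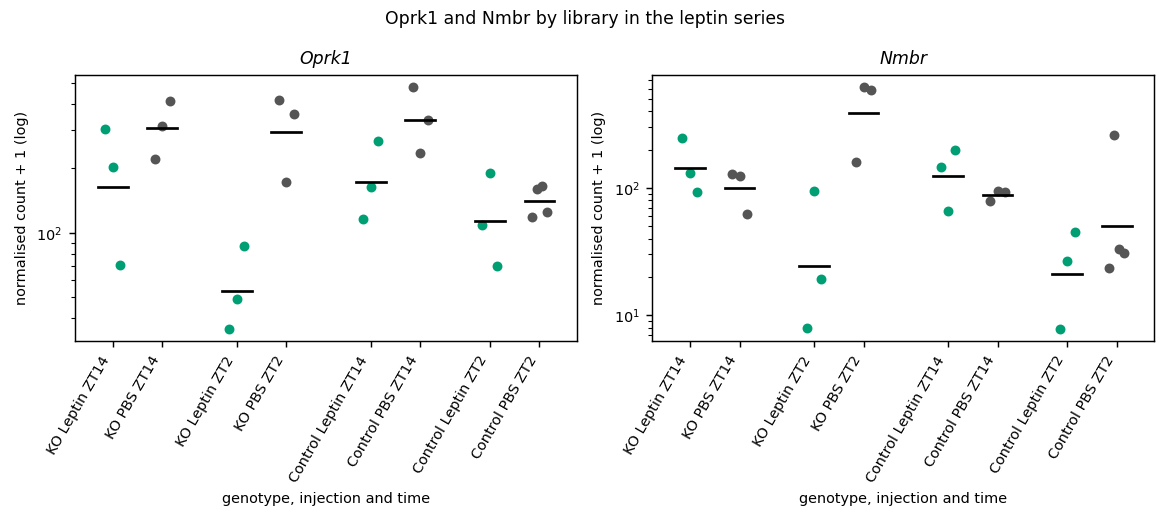
Normalised count + 1 (y, log axis) of Oprk1 and Nmbr in each library of the leptin series, by genotype, injection and time, with leptin in green, PBS in grey and bars at the mean of the log values. KO leptin ZT2 points lie below all KO PBS ZT2 points in both panels.

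No member was called between KO and Control cells. In PBS libraries at ZT2 the comparison called 0 members and 0.0215% of all genes, in leptin libraries at ZT2 0 and 0.00717%, in PBS libraries at ZT14 0 and 0.00717%, and in leptin libraries at ZT14 0 and 0.0215%. Unadjusted p-values under 0.05 were found in 6, 2, 0 and 3 members, and the quasi-likelihood test called 0 in each. The smallest p belonged to Npy1r in PBS libraries at ZT2, with 321, 279 and 673 counts in KO libraries against 104, 251, 85.3 and 84.1 in Control libraries, with no overlap (1.74 ± 0.411, adjusted p 0.366). Nmbr followed there, with means of 456 in KO and 86.3 in Control libraries (2.96 ± 0.793, adjusted p 0.39). Averaged over time and injection 0 members and 0.0789% of all genes were called (4 members with an unadjusted p under 0.05, 0 called by quasi-likelihood), the smallest p being that of Npy2r (-0.49 ± 0.163, adjusted p 0.354).

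At ZT5, 25 members were tested between KO and Control, and 0 members and 0% of all 12940 genes were called (2 members with an unadjusted p under 0.05, 0 called by quasi-likelihood). Galr1 averaged 2.62 in KO and 57.7 in Control libraries (-4.07 ± 1.23, adjusted p 0.511), and Avpr1a, a vasopressin receptor, averaged 108 in KO and 216 in Control libraries (-0.99 ± 0.408, adjusted p 0.55). Since Hsd11b2 went against the label of 1 library in each ZT5 group, the direction of these differences rests on the labels alone.

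Between times of day 1 member was called. In fasted sorted cells 1 member rose and 0 fell at ZT14 against ZT2, where 0.228% of all genes rose and 0.0536% fell. Npy1r had a lowest, median and highest of 148, 241 and 410 counts in fasted ZT14 cells, against 1.1, 45.9 and 172 in fasted ZT2 cells, with 7 of 8 above all ZT2 ones (2.67 ± 0.578, adjusted p 0.0361). That call was lost without fasted ZT14 replicate 2, 7 or 8 or fasted ZT2 replicate 1 or 7 (highest adjusted p 0.0765), by the quasi-likelihood test (0.151) and with no filter (0.0555). In ad libitum sorted cells 0 members and 0% of all genes were called, and in refed ones 0 and 0.0268% (1 and 5 members with an unadjusted p under 0.05, 0 called by quasi-likelihood).

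In RiboTag, ZT14 against ZT2 called 0 members and 0% of all genes in fasted and likewise in ad libitum libraries, with 0 members with an unadjusted p under 0.05 in each and 0 called by quasi-likelihood. In the leptin series it called 0 members in each stratum, beside 0.043% of all genes in KO leptin, 0% in KO PBS, 0% in Control leptin and 0.00717% in Control PBS libraries (6, 7, 3 and 4 members with an unadjusted p under 0.05, 0 called by quasi-likelihood). Averaged over the 4, 0 members and 0.638% of all genes were called (10 members with an unadjusted p under 0.05, 0 called by quasi-likelihood). Oprk1 (0.88 ± 0.239) and Prokr2 (-0.62 ± 0.168) had the smallest p there, both with an adjusted p of 0.098.

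Levels in the leptin series were not those of ad libitum sorted cells, although the 2 experiments stand in 1 table. They were fitted apart and are set side by side here with no test, for 6 members chosen after their values were seen. Prokr2 averaged 1374 in Control PBS ZT2 libraries and 288 in ad libitum sorted cells at ZT2, Nmur2 180 in the PBS and 14 in the ad libitum group, and Vipr1 65.1 in the PBS and 9.34 in the ad libitum group. Oprm1 averaged 20.2 in Control PBS ZT2 libraries and 82.1 in ad libitum sorted cells at ZT2, Qrfpr 12.9 in the PBS and 32.7 in the ad libitum group, and Npy2r 3793 in the PBS and 6812 in the ad libitum group. Genotype, injection and collection differ between these groups, so their parts in the difference cannot be told apart. Whether PBS mice had fed freely was not given in the sources used here.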

How the data were processed

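The authors deposited 1 table of signal values: normalised counts, each library's gene counts scaled by its own size factor. Per the labels' protocols, RNA was amplified with SMART-seq v4 and libraries were made with Nextera XT. R 3.5.1, DESeq, DESeq2, Subread's featureCounts and STAR 2.5.1 are named, with the mm10 build and without their roles, per the submitters' processing notes. In 79 libraries the values were whole multiples of the value of 1 read (within 0.1, for at least 99% of values), so that reads could be recovered. Sorted ad libitum ZT2 replicate 4 gave only 47.2% whole values, so the count test does not hold it.

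The members and gene lists were chosen with earlier results of these data known. The 4 experiments (sorted, RiboTag, leptin series, ZT5) were fitted apart with limma 3.58.1 (trend) in R 4.3.3, on log2(value + 1), which understates changes of low genes. A gene entered a fit where its value was 10 or more in a number of libraries equal to the size of the smallest group. Two-sided p-values were adjusted across every gene of the fit (Benjamini-Hochberg), and 0.05 was the threshold. Of the members, 36, 45, 33 and 25 passed that filter in the 4 experiments. Differences, which are log2 folds, carry SE, and means carry SD. A member was named for a comparison where it was called or, with fewer than 2 calls, where it had 1 of the 2 smallest p. Of ligand and signalling genes up to 4 called ones were named.

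Alternatives were a pseudocount of 10, no filter, TMM scaling, edgeR 4.0.16's quasi-likelihood test of the recovered reads, a replicate block, a GC and length correction, library weights and leaving out each library. Leaving out the libraries that stood apart was added after seeing the data. Scripts were tested on simulated data. Gene positions came from GENCODE M21 (mm10) and promoters from RefSeq (GRCm38.p6). Intervals and floors cover counting error only.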

Additional observations from a re-analysis of the deposited data

Results flagged for a closer look

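For each of 196 pairs of a member and a group of 4 to 10 libraries with a mean of at least 50, the highest and lowest library were compared with the rest of the group on the log2 scale. In 24 of them 1 library lay apart by Dixon's 95% criterion, and chance alone gives about 1 in 20.

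RiboTag fasted ZT2 replicate 3, the library with the highest astrocyte marker sum, accounted for 6. It had 122 normalised counts of Mc3r (762 to 924 in the others of its group), 174 of Npy2r (1523 to 2874), 14.5 of Crhr1 (291 to 700) and 43.6 of Prokr2 (390 to 713). It had 32496 of Ntsr2 (844 to 1534) and 61130 of Ramp1 (335 to 1176).

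RiboTag ad libitum ZT14 replicate 3 had 1466 counts of Calcr (3273 to 3642 in the others), 2639 of Ramp1 (466 to 558) and 2630 of Ednrb (468 to 589). In RiboTag fasted ZT14, Hcrtr2 was at 5.25 in replicate 1 (60.1 to 154), Ramp2 at 4056 in replicate 3 (119 to 279) and Ednrb at 1646 in replicate 4 (455 to 587). About 33.4% of the exon length of Ramp2 overlaps Vps25, and reads of the 2 cannot be told apart.

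In sorted fasted ZT14 cells, replicate 5 had 2935 counts of Adcyap1r1 (674 to 1048 in the others) and 246 of Vipr1 (41.9 to 68). Mchr1 was at 228 in replicate 1 (70.9 to 102), Avpr1a at 0 in replicate 3 (45.3 to 97.3) and Oprk1 at 0 in replicate 7 (28.4 to 157). In sorted fasted ZT2 cells, Npy5r was at 60.1 in replicate 1 (141 to 215) and Nmur2 at 0 in replicate 3 (26.9 to 160).

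Sorted refed ZT2 replicate 4 had 0 counts of Crhr1 (59.6 to 256 in the others) and 0 of Ramp1 (45.6 to 193). Nmur2 was at 293 in sorted refed ZT14 replicate 2 (145 to 161), and Oprm1 at 142 in sorted ad libitum ZT2 replicate 6 (62.6 to 83.4). In the leptin series Nmbr was at 260 in Control PBS ZT2 replicate 2 (22.6 to 32.4).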

How the results depend on the processing

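Of the 51 called differences, 0 changed direction under any alternative and 37 lost their call under at least 1. The 14 that no alternative ended were, for fasting at ZT2, Oprm1, Calcrl, Prokr2, Npy2r, Calcr, Adcyap1r1, Npy5r and Gpr83. For fasting at ZT14 they were Oprl1, Qrfpr and Adcyap1r1, and for refed ZT2 cells Adcyap1r1 (against fasted) and Prokr2 and Npy2r (against ad libitum). The quasi-likelihood test ended 15 calls, leaving out the libraries that stood apart 13, no filter 8, the GC and length correction 6, library weights 4, TMM scaling 2 and a pseudocount of 10 2. The cause was not tested.

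Members called in refed against fasted ZT2 cells numbered 7 by the quasi-likelihood test and 5 each with the GC and length correction and with library weights, beside 3. Over all genes these settings called 3223, 3284 and 3984, beside 3262. In refed against ad libitum ZT2 cells the quasi-likelihood test called 7, beside 12, and 1777 of all genes, beside 2648. In RiboTag fasting at ZT2 they were 0 with no filter, TMM scaling, the quasi-likelihood test and the GC and length correction, and 5 with library weights, beside 1. Over all genes these settings called 1051, 1132, 1467, 1086 and 2877 in that order, beside 1219. At ZT14 they were 2 with a pseudocount of 10, 0 with no filter, 4 with library weights and 2 without the libraries that stood apart, beside 1. With leptin in KO cells at ZT2 they were 1 with no filter and by the quasi-likelihood test and 6 with library weights, beside 2. Of all genes, 44 were called there with no filter and 44 by the quasi-likelihood test, beside 59. Averaged over strata, leptin gave 2 with the GC and length correction and 2 with library weights, Oprk1 not among these 2, beside 1. For ZT14 against ZT2 in fasted sorted cells they were 0 with no filter and by the quasi-likelihood test, and 3 with library weights, beside 1. Refed against fasted ZT14 cells gave 0 without the libraries that stood apart, beside 4.

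Where the count was 0, library weights gave 3 for KO against Control with PBS at ZT2, 1 with leptin at ZT2, 3 with leptin at ZT14 and 2 averaged, 1 for the leptin difference between genotypes at ZT2, and 4, 3 and 6 for ZT14 against ZT2 in Control leptin, in KO leptin and averaged. That averaged time count was 1 with the GC and length correction. Refed against ad libitum ZT14 cells gave 1 with a pseudocount of 10, 6 with library weights and 2 without the libraries that stood apart. Counts of all genes under the same settings are not set beside these, so they do not set members apart from other genes.

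Leaving out 1 library gave 11 to 14 calls for fasting at ZT2 and 6 to 14 at ZT14, where the lowest came without ad libitum replicate 2 or 3. Over all genes the ranges were 5029 to 5570 and 1257 to 3498. Leaving out 1 library gave 1 (without refed replicate 4) to 7 (without fasted replicate 4) for refed against fasted cells at ZT2 and 0 to 5 at ZT14. For refed against ad libitum cells at ZT2 it gave 6 (without refed replicate 4) to 12. All genes called ranged from 2557 to 3530, 1138 to 2447 and 1438 to 2833 in these comparisons. Members called this way were 0 to 2 for RiboTag fasting at ZT2, 0 to 1 at ZT14, 0 to 2 for leptin in KO cells at ZT2, 1 to 2 for leptin averaged and 0 to 2 for KO against Control with PBS at ZT2. Over all genes the ranges were 453 to 2252, 553 to 892, 6 to 106, 85 to 130 and 1 to 36, in that order. They were 0 to 2 for time in fasted sorted cells and 0 to 1 each for time in KO PBS cells and for time averaged. All genes called ranged from 18 to 67, 0 to 38 and 42 to 227 there.

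Deviations of same-numbered libraries had median correlations of 0.001 in sorted cells, -0.032 in RiboTag, 0.032 in the leptin series and -0.021 at ZT5. Other pairs across groups had -0.002, -0.008, -0.019 and 0.021. In the leptin series 21 of 78 same-numbered pairs lay over 0.1, beside 40 of 195 other pairs. The numbers were not taken as pairs in the main fit, but weak pairing in the leptin series is not excluded by this. With a replicate block 9 calls were lost, and 11 with the block and the GC and length correction. The replicate block gave 0 called members in RiboTag fasting at ZT2 and at ZT14, in leptin in KO cells at ZT2 and in fasted sorted cells over time. With the replicate block and the GC and length correction these were 0, 0, 1 and 0.

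Depth limits the low members: fasted Oprm1 rested on 53 and 54 reads and fasted Calcrl on 3. Ad libitum ZT14 held 3 sorted libraries. By the median in place of the mean, 35 members reached 50 in a group.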
